A study of Mus musculus with 6 samples.

Results

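Laminins are large trimeric proteins of basement membranes, each built from 1 alpha, 1 beta and 1 gamma chain. The 9 laminin chain genes described here are Lama1 to Lama5, Lamb1 to Lamb3 and Lamc1, taken by name from 21887 protein-coding genes. Lamc3, another gamma chain gene, is given beside them for comparison. Around each gene, the H3K27ac peaks were read in its mm10 gene body and up to 50 kb on either side, cut midway to the next coding gene. All 9 of these domains were long enough in peaks to be tested, among 10486 domains in all.

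H3K27ac, acetylation of histone H3 at lysine 27, is a mark of active promoters and enhancers. The assay was CUT&RUN, where a nuclease tethered to an antibody releases the DNA around a mark. Lungs of mouse embryos at E16.5, a day of embryonic development, were pooled and their cells sorted. Both populations carried podoplanin (PDPN+) and were negative for CD31, CD45 and DAPI, a stain of dead cells. Mesothelium, the outer lining of the lung, was EPCAM-, and epithelium was EPCAM+. All embryos came from Myrf Fl/Fl matings with no Cre recombinase named, and the cells are called wildtype in the series text. Peak lists of 2 mesothelium libraries (25k and 100k cells by their titles) and 2 epithelium libraries (100k and 200k cells) were used. Cell number thus ran partly with cell type, and its part in the differences was not tested. The 2 epithelium IgG libraries were not analysed here, so no background antibody level stands beside the peaks. Whether the replicates are separate pools is not stated, and the p-values therefore speak only of library-to-library spread, which may be technical.

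As background, an alpha chain carries most of the binding sites for cell receptors, while the beta and gamma chains complete the coiled coil of the trimer. Trimers are named by their chain numbers, so that laminin-521 holds alpha 5, beta 2 and gamma 1. Laminin-511 and laminin-521 are known as widespread basement membrane laminins, and laminin-411 as a laminin of blood vessels and mesenchyme. Laminin-111 is an early embryonic form and laminin-211 that of muscle and nerve.

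The RefSeq promoter table (GRCm38.p6, the assembly that mm10 names) held 5 of the 9 genes, Lama2, Lama5, Lamb1, Lamb2 and Lamb3. Of these, 4 promoters are printed because their start sites showed the patterns that the results turn on. The start of Lamb3 lay at peaks of both epithelium libraries and of no mesothelium library, that of Lamb2 lay under a peak in all 4 libraries, that of Lama5 lay within a region shared by all libraries, and that of Lamb1 was far from any peak. Each runs from 250 bases before the start to 50 after, 5′ to 3′ on the gene's strand. Capitals mark matches to the motifs named after the sequences.
Lamb3 (chr1:193301744-193302043, plus strand): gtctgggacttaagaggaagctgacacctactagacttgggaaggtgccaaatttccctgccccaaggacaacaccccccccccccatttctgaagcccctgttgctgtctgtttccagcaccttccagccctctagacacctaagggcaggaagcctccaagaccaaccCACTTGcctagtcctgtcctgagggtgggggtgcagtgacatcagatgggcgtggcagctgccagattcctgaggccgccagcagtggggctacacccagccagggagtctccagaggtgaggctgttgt
Lamb2 (chr9:108479612-108479911, plus strand): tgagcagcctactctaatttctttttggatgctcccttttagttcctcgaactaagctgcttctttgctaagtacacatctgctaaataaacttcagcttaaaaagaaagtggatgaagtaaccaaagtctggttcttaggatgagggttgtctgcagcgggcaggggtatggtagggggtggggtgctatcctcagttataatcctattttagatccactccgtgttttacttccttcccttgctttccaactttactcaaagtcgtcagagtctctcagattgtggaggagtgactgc
Lama5 (chr2:180225810-180226109, minus strand): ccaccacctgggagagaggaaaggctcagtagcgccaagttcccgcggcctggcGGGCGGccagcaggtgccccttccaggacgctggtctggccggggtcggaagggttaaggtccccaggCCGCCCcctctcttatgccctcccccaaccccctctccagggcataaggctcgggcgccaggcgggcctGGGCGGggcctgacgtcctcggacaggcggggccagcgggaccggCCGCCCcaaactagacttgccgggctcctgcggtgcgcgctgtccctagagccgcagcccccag
Lamb1 (chr12:31265043-31265342, plus strand): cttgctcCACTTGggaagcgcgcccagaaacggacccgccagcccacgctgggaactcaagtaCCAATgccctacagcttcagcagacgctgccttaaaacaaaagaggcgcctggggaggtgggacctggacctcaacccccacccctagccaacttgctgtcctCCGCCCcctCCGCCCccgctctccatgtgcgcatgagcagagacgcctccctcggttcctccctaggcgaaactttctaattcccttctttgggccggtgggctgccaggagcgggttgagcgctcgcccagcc

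The 4 promoters differed in base composition. The Lama5 promoter held 72.7% G and C and 24 CpG dinucleotides, and that of Lamb1 63.7% and 18. The printed Lamb3 promoter held 59.3% and 2 CpG, and the Lamb2 promoter 44.0% and 4 CpG, against medians of 52.7% and 7 CpG over 32851 promoters. Motifs were searched on both strands after the peak values were known: the GC box GGGCGG, the AP-1 motif TGANTCA, the TATA box TATAAA, the CCAAT box, the TEAD motif GGAATG, the NKX2 motif CAAGTG, the forkhead motif TGTTTAC and the grainyhead motif AACNNGTT. Lama5 held 4 GC boxes and Lamb1 held 2, where 35.7% of all promoters hold at least 1. CAAGTG was found once in the printed Lamb3 promoter and once in that of Lamb1, and 13.6% of all promoters hold it. CCAAT was found once, in Lamb1 (37.4% of all promoters), and none of the 8 motifs was found in the Lamb2 window. RefSeq lists another Lamb3 start, at 193302243, whose window held 59.3% G and C, 5 CpG, GGAATG once (14.7% of all promoters) and no CAAGTG. The nearest peaks to it lay 3142 and 6156 bp away in mesothelium and 0 and 505 bp away in epithelium. These matches describe the letters of the windows and nothing about the factors.

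The libraries held 39006 to 47869 peaks, with median widths of 571 to 613 bp and median fold enrichments of 3.47 to 3.75 over the peak caller's background. Peak significance was unlike in mesothelium replicate 2. There 22050 of 41524 peaks had a −log10 q of at least 2, against 11261 to 12281 peaks in each other library. At least 4 was reached by 2267 of its peaks, against 569 to 623. The lists give no counts, and read depth is therefore unknown. Over all coding gene domains, peaks covered 1.89% to 2.26% of the bases per library. The marker sums of the cell types differed in the direction of the sort, with exceptions. The 7 mesothelium markers summed to 21.6 and 51.1 kb in the mesothelium libraries and to 1.82 and 6.10 kb in epithelium, although Msln was not longer in mesothelium (0.544 and 0.893 kb against 1.19 and 4.29 kb). The 7 epithelium markers summed to 106 and 135 kb in epithelium and to 24.5 and 3.16 kb in mesothelium. In mesothelium replicate 1 they thus summed to more than the mesothelium markers did (24.5 against 21.6 kb). In each list 6 markers were tested and 4 were called in the direction of the sort. Epcam, the marker of the sort, was not called (adjusted p = 0.103, limma).

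Of the 9 laminin genes, 1 changed: Lama3 was longer in epithelium, and none was longer in mesothelium (limma, Benjamini-Hochberg adjusted p under 0.05 over all tested domains). At an unadjusted p under 0.05 there were 2 genes longer in epithelium (Lama3 and Lamc1) and 2 longer in mesothelium (Lama4 and Lamb1). Over all tested domains, 2.53% were called longer in epithelium and 1.41% longer in mesothelium, and 9.57% and 8.19% at the unadjusted p. Acetylated length did not overlap between the cell types for 3 laminin genes higher in epithelium and 2 higher in mesothelium, against 25.5% and 22.4% of all tested domains. The median log2 difference of the 9 genes was −0.42 (mesothelium minus epithelium), beside 0.03 for all tested domains. Log2 differences are of log2(kb + 0.5) after centring each library, so they understate changes of short domains.

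**Figure D1:**
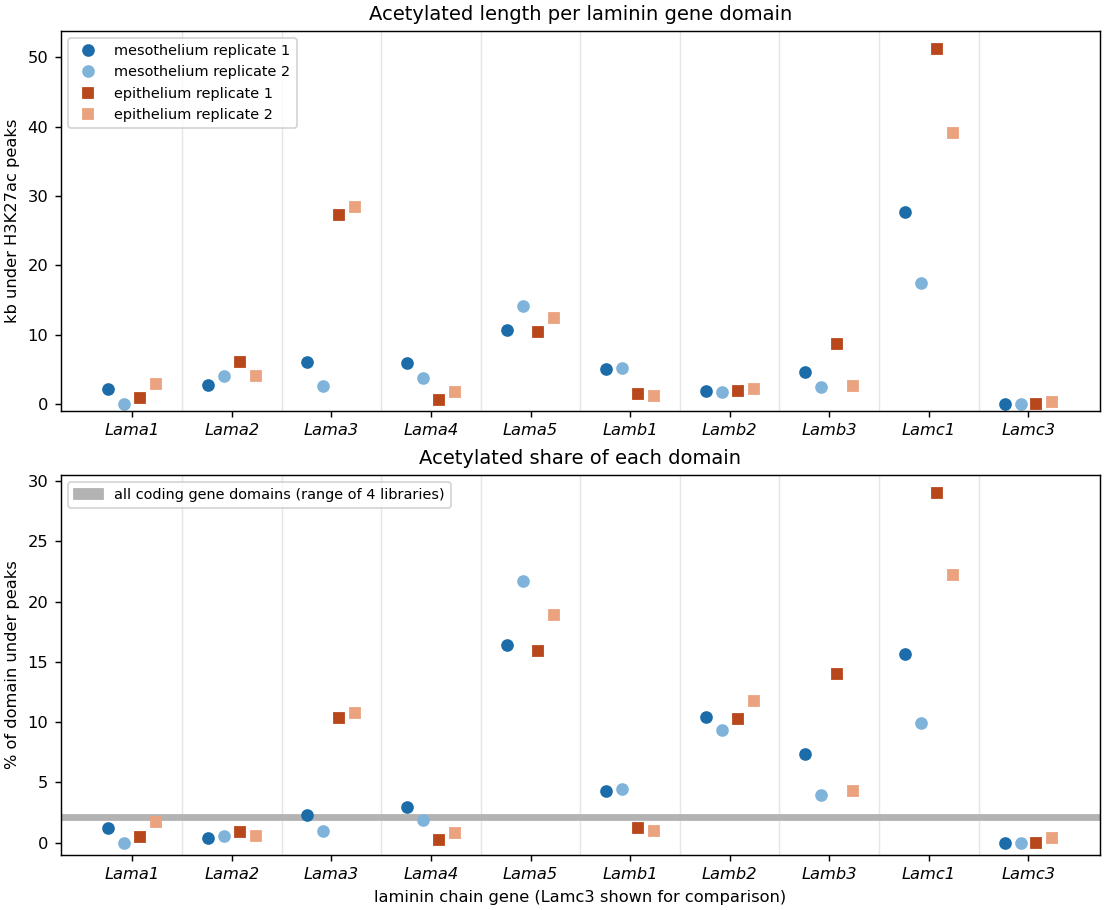
Acetylated kb (top) and percent of the domain under peaks (bottom) for each laminin gene in each of the 4 libraries, 1 point per library. Lama3 stands at 27.2 and 28.4 kb in the epithelium pair against 6.09 and 2.56 kb in the mesothelium pair, and Lama1 and Lama2 lie under the grey band of all coding gene domains in the lower panel.

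Lama3 encodes the alpha 3 chain, from a long and a short transcript form. Its domain (gene on chromosome 18, 12333417 to 12583013) carried 6.09 kb of acetylated sequence in mesothelium replicate 1 and 2.56 kb in replicate 2, against 27.2 and 28.4 kb in epithelium replicates 1 and 2. Both epithelium libraries were thus high and both mesothelium libraries low, with no overlap. The log2 difference was −2.59 (SE 0.44, adjusted p = 0.0015, limma), which ranked 155 among the tested domains toward epithelium. Its means were 27.8 ± 0.840 kb in epithelium and 4.33 ± 2.49 kb in mesothelium (SD, n = 2 each), a 6.43-fold ratio. The size depended on the mesothelium library: the log2 difference was −3.21 without mesothelium replicate 1 and −1.98 without mesothelium replicate 2. In the 2 libraries of 100k cells, the lengths were 2.56 kb in mesothelium and 27.2 kb in epithelium. Without epithelium replicate 2 the call was lost (adjusted p = 0.071, limma), as it was when peaks below a −log10 q of 2 were dropped (0.229), with 0.1 kb added in place of 0.5 kb (0.083) and with the number of peaks as the measure (0.064). All 15 alternatives kept the direction, with adjusted p from 2.8e-06 to 0.229. The epithelium markers also lay higher in mesothelium replicate 1 than in replicate 2 (24.5 and 3.16 kb summed), in the same order as Lama3, and their part in the mesothelial Lama3 peaks was not tested.

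Peaks of Lama3 recurred in the part of the gene next to its lower-coordinate end. Merging the 4 libraries' peaks gave 37 regions in the domain, of which 9 were present in at least 2 libraries. Each of these 9 was present in both epithelium libraries, 6 of them in no mesothelium library and 3 in 1 mesothelium library. One region covered the gene end itself (12332994 to 12336629, mm10), with peaks of 3.64 and 3.17 kb in epithelium and fold enrichments of 4.05 and 3.86. In mesothelium the nearest peaks to that end were 13170 and 44763 bp away. The widest recurring regions lay at 12393416 to 12399668 (6.25 kb) and 12386957 to 12392241 (5.28 kb), each with a peak of 1 mesothelium library as well. Apart from 1 region at 12575209 to 12576187, these regions lay between 12332994 and 12402284. Sequence covered in both libraries of a cell type came to 11.5 kb in epithelium and to none in mesothelium.

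**Figure D2:**
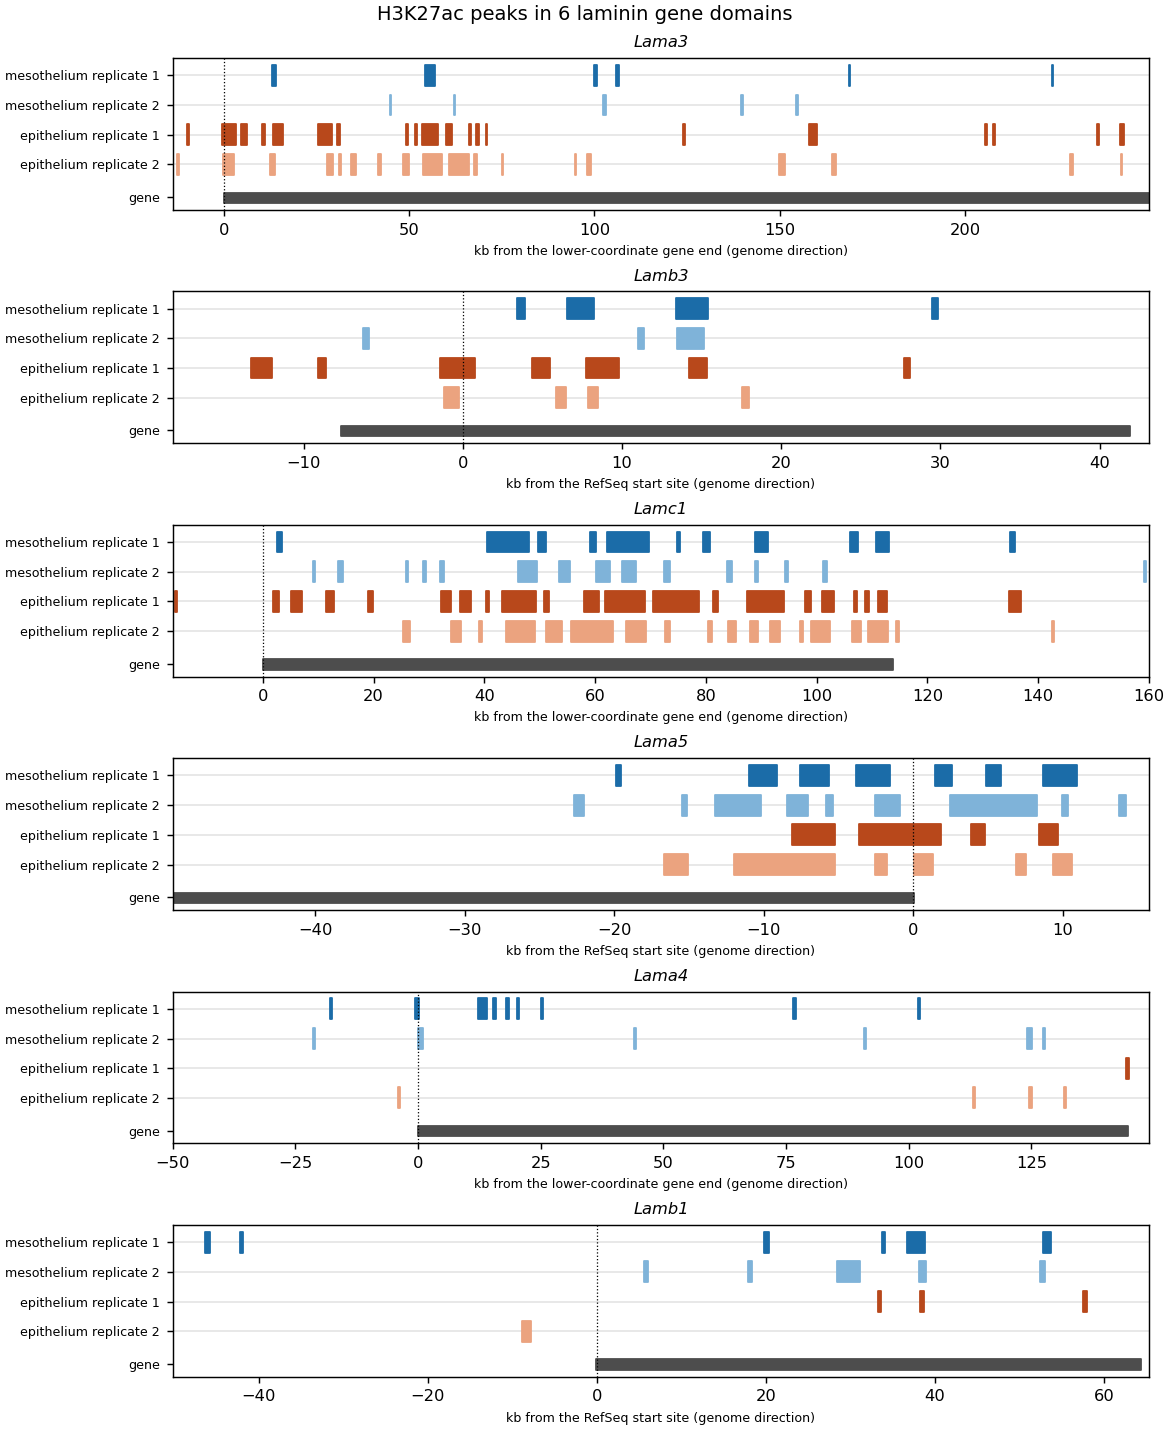
Peaks of the 4 libraries (coloured bars, 1 row per library) along 6 laminin gene domains, in kb from the RefSeq start site, or from the lower-coordinate gene end where no start is listed. Epithelium peaks cluster next to the lower-coordinate end of Lama3 and cover the start of Lamb3 in replicate 1, whereas peaks of all libraries crowd the middle of Lamc1 and surround the start of Lama5.

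Lamb3 did not pass the test. It encodes the beta 3 chain, a partner of alpha 3 in epithelia (chromosome 1, 193294353 to 193343878). It carried 4.54 and 2.43 kb in the mesothelium pair against 8.59 and 2.63 kb in the epithelium pair, so the cell types overlapped and epithelium replicate 1 stood above the other libraries. The log2 difference was −0.42 (SE 0.62, adjusted p = 0.787, limma). Its start site nevertheless had a peak in both epithelium libraries. In epithelium replicate 1 a peak of 2.17 kb (193300572 to 193302742) covered the whole printed promoter, with a fold enrichment of 5.74 and a −log10 q of 4.65. In epithelium replicate 2 a peak of 0.938 kb (193300801 to 193301738) ended just before the printed window, 256 bp from the start, with a fold enrichment of 5.47 and a −log10 q of 4.17. The nearest mesothelium peaks lay 3391 and 5907 bp from this start. Of the 9 genes, Lamb3 was the only one with a −log10 q of at least 4 in both libraries of a cell type, which 0.265% of all coding gene domains showed in epithelium and 1.01% in mesothelium. Besides the region at the start, Lamb3 held other recurring regions. The widest (193308543 to 193311786, 3.24 kb) held peaks of both epithelium libraries and mesothelium replicate 1. Another (193315397 to 193317400) held peaks of both mesothelium libraries and epithelium replicate 1, so that 1.70 kb of Lamb3 was covered in both mesothelium libraries.

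Lamc1 encodes gamma 1, the gamma chain of most laminins (chromosome 1, 153218922 to 153332786). It had the longest acetylated sequence of the family in every library, with 27.6 and 17.5 kb in the mesothelium pair against 51.2 and 39.1 kb in the epithelium pair. The groups did not overlap, and the epithelium mean was 2.00 times the mesothelium mean. The log2 difference of −0.95 (SE 0.29) did not pass (adjusted p = 0.067, limma), although it passed in 4 of 16 alternatives: 1 kb added in place of 0.5 kb (adjusted p = 0.026), no filter on short domains (0.044), the replicate number as a block (0.031) and without mesothelium replicate 1 (0.0079). Of 30 merged regions, 5 were present in all 4 libraries and 1 in both epithelium libraries alone (153252950 to 153256571). The widest shared region spanned 14.1 kb (153274638 to 153288732), in the middle of the gene. Both epithelium libraries together covered 21.6 kb of the domain and both mesothelium libraries 5.80 kb. At its upper-coordinate end the nearest peaks lay 774 bp (mesothelium replicate 1), 11997 bp (mesothelium replicate 2), 1094 bp (epithelium replicate 1) and 454 bp (epithelium replicate 2) away. Lamc3, the gamma 3 gene, held a single peak, of 0.321 kb in epithelium replicate 2, and was not tested.

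**Figure D3:**
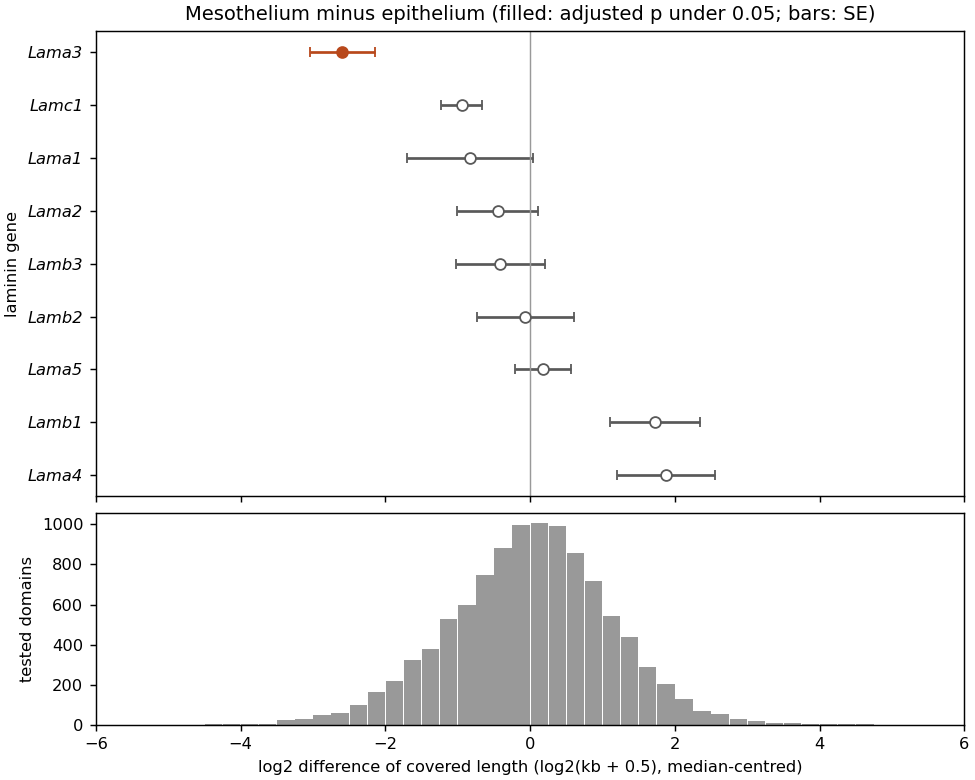
Log2 difference of acetylated length, mesothelium minus epithelium, for the 9 laminin genes (points, with SE bars; top) above the histogram of all 10486 tested domains (bottom). Lama3 at −2.59 is the filled point, Lamc1 lies at −0.95, and Lama4 and Lamb1 lie at 1.87 and 1.72.

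Lama4 and Lamb1 were the laminin genes with the largest values toward mesothelium, and neither passed. Lama4 encodes the alpha 4 chain, which lacks the amino-terminal arm of longer alpha chains and is known from vessels and mesenchyme (chromosome 10, 38965515 to 39110188). It carried 5.88 and 3.73 kb in the mesothelium pair against 0.519 and 1.65 kb in the epithelium pair. Both mesothelium libraries stood above both epithelium libraries, with means of 4.81 ± 1.53 kb and 1.09 ± 0.801 kb (SD, n = 2 each), a log2 difference of 1.87 (SE 0.68) and an adjusted p of 0.135 (limma). At its lower-coordinate end, a mesothelium replicate 1 peak covered the end and a replicate 2 peak began 40 bp inside, forming the 1 mesothelium-only region of the domain (38964956 to 38966515). These peaks were weak, with fold enrichments of 3.35 and 3.32 and −log10 q of 1.39 and 1.51, and overlapped over 0.155 kb. The nearest epithelium peaks to that end were 110805 and 3680 bp away, while a peak of 0.519 kb in epithelium replicate 1 covered the upper-coordinate end.

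Lamb1 encodes beta 1, the partner of most alpha chains (chromosome 12, 31265146 to 31329644). It carried 4.99 and 5.15 kb in the mesothelium pair against 1.43 and 1.10 kb in the epithelium pair. The mesothelium totals were close to each other and above both epithelium libraries, but their peaks lay mostly at different places. Only 0.968 kb was covered in both mesothelium libraries, 19.4% of the lower total, and 10 of 12 merged regions were present in 1 library. The log2 difference was 1.72 (SE 0.62, adjusted p = 0.135, limma). Its start site had no peak within 5 kb in any library, the nearest being 5598 bp away in mesothelium replicate 2. The recurring mesothelial peaks lay inside the gene, in a mesothelium-only region at 31317746 to 31319007 (1.26 kb) and a region at 31301979 to 31304223 shared with epithelium replicate 1. Neither Lama4 nor Lamb1 passed in any of 15 alternatives each (adjusted p 0.098 to 0.871 and 0.086 to 0.653, limma), and both kept their direction in all of them. With peaks below a −log10 q of 2 dropped, the log2 differences were smaller, 0.40 for Lama4 and 0.76 for Lamb1. With 1 library left out they ran from 1.28 to 2.46 for Lama4 and from 1.63 to 1.81 for Lamb1.

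Markers of other cells did not all go the same way. Those of endothelium and fibroblasts summed higher in mesothelium, and those of smooth muscle and pericytes lower. The 4 endothelium markers summed to 11.6 and 10.5 kb in mesothelium and to 2.68 and 2.76 kb in epithelium, with Tek (3.35 and 6.12 kb) and Kdr (2.80 and 2.81 kb) at no peak in epithelium and both called (adjusted p = 0.011 and 0.049, limma). The Kdr call was lost with any 1 library left out (adjusted p 0.127 to 0.241, limma), and that of Tek without mesothelium replicate 2 (0.137), epithelium replicate 1 (0.101) or epithelium replicate 2 (0.1002). Kdr was called in 4 of 14 alternatives and Tek in 7 of 16. Pecam1, which encodes the CD31 of the sort, was not called (adjusted p = 0.780, limma). Cdh5 had no peak in either mesothelium library, and 0.378 and 0.835 kb in the epithelium pair. The 4 fibroblast markers summed to 2.94 and 6.44 kb against 0.344 and 2.10 kb, and the 3 smooth muscle and pericyte markers to 2.28 and 0.937 kb against 3.53 and 3.19 kb. Of 3 leukocyte markers, 2 had no peak in mesothelium replicate 1 and all 3 none in replicate 2. Together they summed to 0.359 and 0 kb in mesothelium and to 0 and 1.74 kb in epithelium. The part of such cells in the Lama4 and Lamb1 values was not tested. In sorted bulk cells, a share of cells with a peak and a weaker mark in every cell cannot be told apart.

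Lama5 and Lamb2 overlapped between the cell types and did not pass, and their standard errors leave room for differences. Lama5 encodes the alpha 5 chain of laminin-511 and laminin-521 (chromosome 2, 180176373 to 180225904). It carried 10.7 and 14.2 kb in the mesothelium pair against 10.4 and 12.4 kb in the epithelium pair, overlapping ranges with a log2 difference of 0.18 (SE 0.39, adjusted p = 0.870, limma). Of its 7 merged regions, 3 were present in all 4 libraries, the widest of 12.1 kb across the start (180222037 to 180234131). Only in epithelium replicate 1 did a single peak, of 5.44 kb, cover the start site. In epithelium replicate 2 a peak began 84 bp away, and in mesothelium the nearest peaks were 1439 and 867 bp from the start.

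Lamb2 encodes beta 2, the alternative to beta 1 (chromosome 9, 108479847 to 108490530), and has the shortest gene of the family at 10.7 kb. It carried 1.85 and 1.65 kb in the mesothelium pair against 1.82 and 2.08 kb in the epithelium pair, again overlapping (log2 difference −0.06, SE 0.67, adjusted p = 0.979, limma). A peak covered its start site in each library, 1.24 to 1.85 kb wide, with fold enrichments of 4.17 and 4.34 in mesothelium and 3.76 and 3.70 in epithelium. It was the only laminin gene with a peak within 1 kb of a start in all 4 libraries, which 10.7% of coding genes showed. The whole of the mesothelium replicate 2 peak, 1.65 kb, was also covered in replicate 1.

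Lama1 and Lama2 had scattered peaks, few in Lama1 and 5 to 13 per library in Lama2. Lama1, the alpha chain of laminin-111 (chromosome 17, 67697127 to 67822645), carried 2.08 kb in mesothelium replicate 1, no peak in replicate 2, and 0.833 and 2.83 kb in epithelium. None of its 8 regions was present in more than 1 library, and its log2 difference of −0.83 (SE 0.87, adjusted p = 0.667, limma) turned to 0.42 without mesothelium replicate 2. Lama2, the alpha chain of laminin-211 (chromosome 10, 26981285 to 27617191), is the longest gene of the family at 636 kb. It carried 2.74 and 4.04 kb in the mesothelium pair against 6.00 and 4.10 kb in the epithelium pair (log2 difference −0.45, SE 0.56, adjusted p = 0.737, limma). The values of Lama2 did not overlap, but 31 of its 32 regions were present in 1 library and none in both libraries of a cell type. Its start site had no peak within 3 kb in any library. The nearest lay 3940 bp away in mesothelium replicate 1, with a fold enrichment of 6.04 and a −log10 q of 5.03.

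Set per length of domain, the order of the laminin genes differed between the cell types at several places, which was not tested. In mesothelium, peaks covered 19.1% ± 3.75 of the Lama5 domain, 12.8% ± 4.07 of Lamc1, 9.88% ± 0.8003 of Lamb2, 5.67% ± 2.43 of Lamb3 and 4.39% ± 0.0974 of Lamb1 (mean ± SD, n = 2 libraries). Lama4 (2.42%), Lama3 (1.64%), Lama1 (0.621%) and Lama2 (0.489%) followed. In that order Lamc1 overlapped with Lamb2, Lamb3 with Lamb1, and each of the last 4 genes with its neighbour. In epithelium the order began with Lamc1 (25.6% ± 4.84), Lama5 (17.4% ± 2.11), Lamb2 (11.04% ± 1.04), Lama3 (10.6% ± 0.319) and Lamb3 (9.15% ± 6.87), where the last 3 overlapped. Lamb1 (1.10%), Lama1 (1.09%), Lama2 (0.728%) and Lama4 (0.546%) were the lowest and overlapped with their neighbours, all under the 2.12% to 2.26% of all domain bases in these libraries. Lama2 was under the share of all domain bases in each of the 4 libraries, with 0.396% to 0.866%.

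Which trimers were acetylated depended on how a chain was counted as marked. The peaks describe the chain genes only: no RNA or protein was measured here, so a complete trimer need not be made. With a peak anywhere in the domain in both libraries of a cell type, 8 of the 9 genes were marked in mesothelium and all 9 in epithelium, beside 41.6% and 42.6% of all coding genes. Of the 10 trimers considered, all of which hold gamma 1 and none of which holds beta 3, this left out laminin-111 and laminin-121 in mesothelium, which lacked Lama1, and none in epithelium. Lama2 met this rule with its scattered peaks, so the rule says little about a chain. When the peaks of both libraries also had to overlap, a rule chosen after seeing the data, 6 of 9 genes were marked in mesothelium and 5 of 9 in epithelium, beside 27.6% and 26.2% of all coding genes. The complete trimers were then laminin-411, laminin-421, laminin-511 and laminin-521 in mesothelium and laminin-321 and laminin-521 in epithelium. Lama4 and Lamb1 were marked this way in mesothelium alone, Lama4 by the 0.155 kb described above and Lamb1 by 0.968 kb. Lama3 was so marked in epithelium alone, by 11.5 kb. The shares of all coding genes were not matched for domain length. Laminin domains ran from 17.7 kb (Lamb2) to 693 kb (Lama2), and a longer domain has more room for a peak.

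At a start site or gene end, the alpha 3 and beta 3 genes had peaks in both epithelium libraries and in neither mesothelium library. A peak within 1 kb of the RefSeq start, or of either gene end for genes without a listed start (Lama1, Lama3, Lama4, Lamc1 and Lamc3), was found in both epithelium libraries at Lama3, Lama5, Lamb2 and Lamb3, 4 of 9 genes beside 16.7% of all coding genes. In both mesothelium libraries it was found at Lama4 and Lamb2, 2 of 9 genes beside 20.4% of all coding genes. A start was listed for 5 of the 9 genes and for 79.9% of all coding genes. Genes without one could meet the rule at either end, so these shares are not fully alike. The pattern of Lama3 and Lamb3 was shown by 1.81% of all coding genes. No laminin gene had the opposite pattern by this rule, which 2.87% of coding genes had. Lama4 had it at its lower-coordinate end alone, and missed it through the epithelium replicate 1 peak at its other end, while Lama3 had no mesothelium peak within 1 kb of either end. Lama1, Lama2 and Lamb1 had no such peak in any library, like 53.3% of coding genes. None of the 10 trimers was complete by this rule in either cell type. With a window of 2 kb, laminin-321 and laminin-521 were complete in epithelium and none in mesothelium. Without epithelium replicate 1 the same 2 trimers were complete in epithelium, and without mesothelium replicate 2 laminin-421 was complete in mesothelium. Whether these counts differ between the cell types was not tested.

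**Figure D4:**
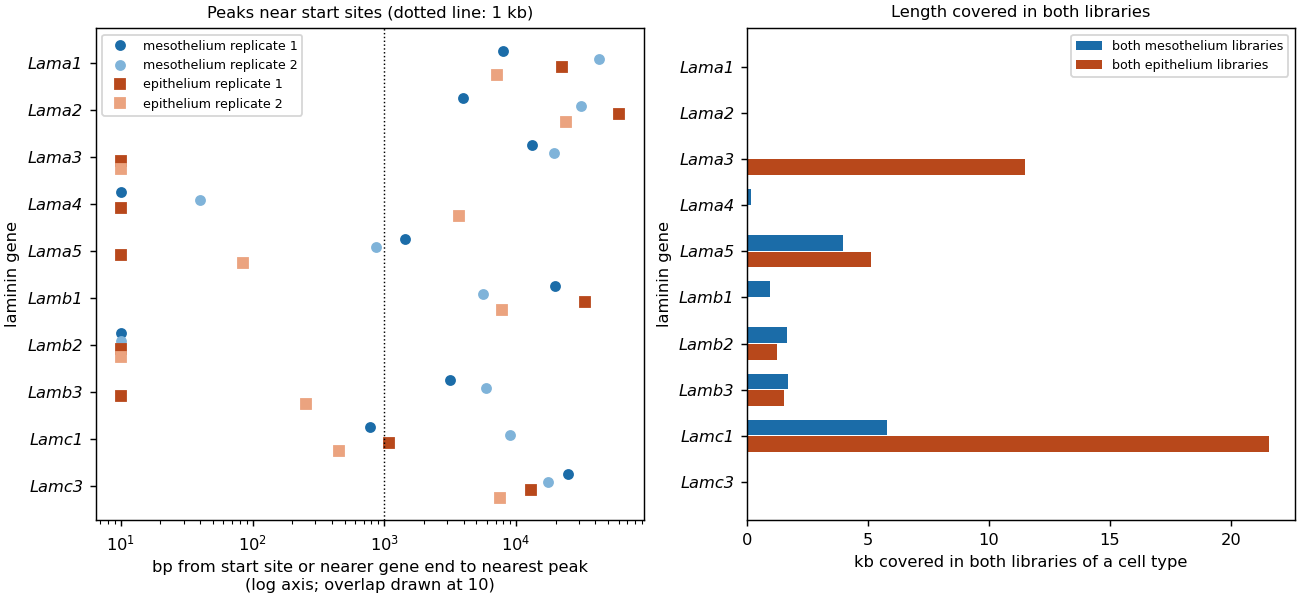
Distance from the start site, or the nearer gene end where no start is listed, to the nearest peak of each library (left; log axis, overlap drawn at 10 bp) and kb covered in both libraries of a cell type (right). Lama3 and Lamb3 have epithelium points left of the 1 kb line and mesothelium points right of it, and Lamc1 and Lama3 have the longest epithelium bars, 21.6 and 11.5 kb.

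Across the family, recurring regions were about as frequent as elsewhere. The 9 domains held 159 merged regions, of which 37 were present in at least 2 libraries, 23.3% against 22.2% of the 104904 regions of all coding gene domains. Regions of both epithelium libraries alone made up 5.03% (8 regions, of which 6 in Lama3, 1 in Lamb3 and 1 in Lamc1), against 3.51% of all. Regions of both mesothelium libraries alone made up 1.26% (2 regions, in Lama4 and Lamb1), against 2.96% of all. Regions in all 4 libraries made up 5.66% (5 in Lamc1, 3 in Lama5 and 1 in Lamb2), against 3.94% of all.

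Genes of laminin receptors and of other basement membrane proteins were read in the same way. Of 9 laminin receptor genes, 7 were tested and 1 was longer in epithelium (14.3%, beside 2.53% of all tested domains), and the median log2 difference was −0.86. That gene was Sdc1, which encodes the heparan sulfate proteoglycan syndecan-1 (5.16 and 3.03 kb in mesothelium, 21.0 and 20.6 kb in epithelium, adjusted p = 0.0064, limma). It was called in 9 of 15 alternatives, and the call was lost without epithelium replicate 1 (adjusted p = 0.085, limma) and without epithelium replicate 2 (0.124). Itga6, the alpha 6 integrin subunit that pairs with beta 4 in epithelial anchoring, did not pass (2.77 and 0.404 kb against 7.12 and 4.15 kb, adjusted p = 0.185, limma). Itgb4, which encodes beta 4, had no peak in either epithelium library and 0.336 kb in mesothelium replicate 2, and was not tested. Itgb1, which encodes the beta 1 integrin subunit, did not pass (8.49 and 10.2 kb against 2.66 and 3.54 kb, adjusted p = 0.110, limma). Of 22 basement membrane partner genes, 21 were tested, 2 were longer in epithelium (9.52%, beside 2.53% of all tested domains) and none in mesothelium (beside 1.41%), with a median of −0.13. At an unadjusted p under 0.05 there were 7 toward epithelium (33.3%, beside 9.57%) and 2 toward mesothelium (9.52%, beside 8.19%). These lists were chosen with earlier results known, and their shares were not tested against the rest. Col18a1, which encodes the collagen of endostatin, carried 3.53 and 1.09 kb in the mesothelium pair against 15.8 and 18.9 kb in the epithelium pair (adjusted p = 0.0052, limma). It was called in 10 of 15 alternatives, though not without epithelium replicate 1 (adjusted p = 0.062, limma) or without epithelium replicate 2 (0.141). Fras1, an adhesion protein under epithelia, carried 16.4 and 22.1 kb against 38.9 and 47.1 kb (adjusted p = 0.028, limma). It was called in 6 of 16 alternatives, and of the 4 fits with 1 library left out only the fit without mesothelium replicate 2 kept the call (adjusted p = 0.031, limma; 0.061 to 0.364 in the others). The 2 genes toward mesothelium at that unadjusted p were Pxdn and Nid2, and neither passed. Pxdn, a peroxidase that crosslinks collagen IV, carried 6.997 and 2.99 kb against none and 1.24 kb (adjusted p = 0.068, limma). Nid2, a nidogen that binds the gamma 1 chain, carried 1.75 and 2.32 kb and no peak in epithelium (adjusted p = 0.114, limma). Toward epithelium, Hspg2, Col4a6, Col15a1, Tinagl1 and Hmcn1 also met the unadjusted p without passing (adjusted p 0.104 to 0.213, limma).

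Over the 4 libraries, the coding genes whose centred lengths lay nearest to those of Lama3 were Sorcs2, Efnb2 and Hpcal1, at Euclidean distances of 0.34, 0.52 and 0.55 on the log2 scale. Those nearest to Lama4 were Defa21, Zfyve1 and Cyria, at 0.42, 0.43 and 0.46.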

How the data were processed

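Broad H3K27ac peaks were deposited as 1 list per library. The submitters' processing notes name the build mm10, the aligner Bowtie2 2.5.3 and the peak caller MACS2 2.2.9.1, together with bedtools 2.31.1, HOMER, cutadapt 4.8 and others, and no settings. Its control sample and threshold were not given in the sources used here. The deposited ratio is a peak's fold enrichment over background, and the deposited −log10 p and −log10 q rank peaks within a list (lowest −log10 q 1.00 to 1.03). The deposited score was not used. No counts were at hand, so no count model was run, and a domain without a peak may still be acetylated.

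Gene bodies came from RefSeq (GRCm38.p6). Domains averaging 0.5 kb or more under peaks entered a fit in limma 3.58.1 (trend on; R 4.3.3). Its input was log2(kb + 0.5), and each library was centred on its median over 6918 domains where every library had a peak. P-values were Benjamini-Hochberg adjusted. Groups came from the sample titles. Regions merged peaks overlapping by at least 1 bp. Coverage and figures were made with numpy 2.4.6, pandas 2.3.3 and matplotlib 3.10.9 under Python 3.11.15. The coverage and limma steps were tested on simulated data. The limma simulation drew normal noise and did not imitate domains without a peak, so it says little about those. The members, gene lists and rules were chosen with earlier results of these data known: all 9 genes, Lamc3, the called partner genes with examples that did not pass, and the 3 nearest genes to the members of largest difference. Another comparison gene that this rule names is not reported here. Alternatives covered the peak threshold and number, the domain, scaling, pseudocount, filter, measure, replicate block and leaving out each library.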

Additional observations from a re-analysis of the deposited data

How the results depend on the processing

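Every laminin log2 difference was recomputed under 14 to 16 alternatives. Directions turned for 4 genes that were never called: Lama1 (0.42 without mesothelium replicate 2, lowest −2.08 with 1 library left out), Lama5 (−0.11 with gene bodies, −0.12 with 5 kb flanks), Lamb2 (0.75 at a −log10 q minimum of 2, 0.18 with 5 kb flanks, 0.021 scaled to total length, 0.061 without mesothelium replicate 2 and 0.06 without epithelium replicate 2, lowest −0.19 with 1 library left out) and Lamb3 (0.04 without mesothelium replicate 2, 0.31 without epithelium replicate 1, lowest −1.14 with 1 library left out). Laminin genes longer in epithelium numbered 0 at −log10 q minima of 2 or 4, with 0.1 kb added and by number of peaks, and 2 with 1 kb added and without the filter (0 to 2 with 1 library left out); those longer in mesothelium stayed at 0. Over all domains, counts longer in mesothelium and epithelium were 0 and 0 at −log10 q minima of 2 or 4, 91 and 108 scaled to total length, 94 and 125 after quantile normalization and 1 and 0 with 0.1 kb added, and 157 in epithelium by number of peaks. They were 34 to 111 and 11 to 361 with 1 library left out. In laminin domains, regions of both mesothelium libraries alone (main count 2) numbered 0 at a −log10 q minimum of 4 and 1 with a 50% overlap; those of both epithelium libraries alone (8) numbered 3 and 1, and those in all 4 libraries (9) 3 and 0, at −log10 q minima of 2 and 4. Leaving out 1 library lowers what a region needs and gave 3 to 31, 10 to 48 and 8 to 14. Trimers with a peak in each chain (8 in mesothelium, 10 in epithelium) numbered 0 and 0 at a −log10 q minimum of 4, 4 and 0 with at least 2 kb and 4 and 2 with overlapping peaks; in epithelium they numbered 3 at a −log10 q minimum of 2 and 5 with gene bodies or 5 kb flanks. Start-site trimers in epithelium (0) numbered 2 with a 2 kb window and 0 to 2 with 1 library left out, and in mesothelium 0 to 1 with 1 library left out. More peaks of mesothelium replicate 2 than of any other library met the −log10 q minima of 2 and 4. Those settings therefore do not treat the libraries alike. The causes were not tested. The replicate differences of the cell types were nearly uncorrelated across 10486 domains (r = 0.029). This cannot show whether libraries with the same replicate number shared a pool or sort, which is not stated. With the replicate number as a block, 2 laminin genes were longer in epithelium, Lama3 and Lamc1. Over all domains, 209 were then called longer in mesothelium and 348 in epithelium.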
